A study of Mus musculus with 6 samples.

Results

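Granzyme A, granzyme B and perforin, encoded by Gzma, Gzmb and Prf1, are the best known proteins of cytotoxic granules. Perforin forms pores in the membrane of the target cell, and the granzymes are serine proteases that enter through them: granzyme B cleaves caspases and their substrates, and granzyme A cleaves other proteins after basic residues. Natural killer (NK) cells and effector CD8 T cells carry these granules. The 3 genes were taken by their symbols and were held by each of the 3 deposited matrices, among the 5300 genes that these matrices hold between them.

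The cells were CD45+ immune cells sorted from the liver of Balb/c mice after intracardiac injection of 4T07 (4TO7 in the labels) breast tumor cells, which carried either a Tim3 shRNA (Tim3-KD) or a scramble control vector (Ctrl). Micrometastasis was taken on day 3 and macrometastasis on day 12, and tumor-free adjacent tissue carries day 3 in the labels. Each site had 1 Ctrl and 1 Tim3-KD library, and each of the 6 libraries was a pool of 2 mice, so that Ctrl and Tim3-KD of a site could not be compared over replicates. Whether adjacent tissue and micrometastasis came from the same mice is not given in the sources used here. The shRNA acted in tumor cells, and tumor cells were not sorted, so that the knockdown itself could not be checked in these libraries. The libraries held 542 to 5502 cells, 23008 in all, with a median of 6300 to 10248 unique molecular identifiers (UMIs, 1 per captured transcript) per cell, and 59 barcodes occurred in over 1 library. Levels are in CPM, the UMIs of a gene scaled to the total UMIs of the same cells, summed over the cells of a class in a library. Intervals are at 95% and cover counting error only. These are values of pooled mice, 1 library per group, so that p-values over libraries compare classes of cells and not conditions.

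The upstream sequences are shown because the 3 genes are expressed in overlapping but unequal sets of cells. By GENCODE, Gzma lies on chromosome 13 (GRCm38 chr13:113093825-113100981, minus strand), Gzmb on chromosome 14 (chr14:56258838-56262260, minus strand) and Prf1 on chromosome 10 (chr10:61297833-61304680, plus strand), and no annotated gene overlaps any of them. The bases before the start of each gene are from RefSeq (GRCm38.p6, 5′ to 3′), with matches of the letters AGGTGT (T-box), TGTGGT (RUNX), AGGAAGT (ETS), TGAGTCA (AP-1) and TTCNNNGAA (STAT), read on both strands, in capitals. They are counted from RefSeq's own starts, which for Gzmb lies upstream of the GENCODE start, so that the bases between the 2 starts are not shown.
Gzma, chr13:113100982-113101231: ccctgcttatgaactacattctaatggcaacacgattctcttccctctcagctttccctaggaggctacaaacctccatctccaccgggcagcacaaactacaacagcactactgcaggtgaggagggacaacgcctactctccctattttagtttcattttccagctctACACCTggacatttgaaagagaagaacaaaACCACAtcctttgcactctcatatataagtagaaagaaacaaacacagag
Gzmb, chr14:56262335-56262584: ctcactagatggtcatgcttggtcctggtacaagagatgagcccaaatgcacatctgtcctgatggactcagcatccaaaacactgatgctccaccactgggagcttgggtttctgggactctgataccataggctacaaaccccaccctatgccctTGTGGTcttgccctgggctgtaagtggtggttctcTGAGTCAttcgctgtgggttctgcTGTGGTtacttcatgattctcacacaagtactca
Prf1, chr10:61297586-61297750: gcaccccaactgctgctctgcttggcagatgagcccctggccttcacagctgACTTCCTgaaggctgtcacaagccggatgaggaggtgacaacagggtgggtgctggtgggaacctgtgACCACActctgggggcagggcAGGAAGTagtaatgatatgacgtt
Gzma held 1 T-box match (ACACCT) and 1 RUNX match (ACCACA). Gzmb held 2 RUNX matches on either side of an AP-1 match and no T-box match in this window. Prf1 held 2 ETS matches and 1 RUNX match, and a T-box match (AGGTGT) lay 24 to 19 bases before the RefSeq start, in the last 85 bases of the 250, which are not printed because another transcript already covers them. Among 32851 RefSeq promoters of 250 bases, 11.8% held a T-box match, 14.0% RUNX, 7.69% ETS, 4.46% AP-1 and 7.02% STAT, and these letters mark no measured binding.

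To describe the genes across cell types, cells were clustered without any granzyme gene or Prf1, so that the members did not set the classes. A cluster led by Ccl5, Ncr1, Sytl3 and Klra3 was NK-like (453 cells), with a UMI of Ncr1, an activating NK receptor, in 87.6% of its cells, of Eomes in 60.9% and of Cd3e in 1.10%. Effector CD8 T-like cells (367) were led by Cd8b1, Ccl5 and Cd8a. NKT-like cells (464) were led by Ifng, Cxcr6 and Xcl1, with Cd3e in 84.9% of cells, Cd4 in 22.2%, Cd8a in 3.02% and Ncr1 in 1.51%. Cxcr6 was found in 72.8% of them and in 70.3% of effector CD8 T-like cells. The rule for this name asked for Cxcr6 and Cd3e and for little Cd8a or Trdc, so that other T cells with Cxcr6 may be included. A cluster of 142 cells led by Xcl1, Cd7, Cd160 and Ncr1 had more markers of type 1 innate lymphoid cells (ILC1) than of any other type, but the data went against that name: 108 of its cells (76.1%) held a UMI of Cd3d, Cd3e or Cd3g, genes of the T cell receptor complex. Trdc, a T cell receptor delta gene, does not separate this cluster from NK-like cells, with a UMI in 29.6% and 40.2% of the cells (306 and 156 CPM). It was found in 2.80% of NKT-like and 0.545% of effector CD8 T-like cells. Cd8a was found in 23.9% of the cells of this cluster. In adjacent tissue all 25 and all 14 cells of the Xcl1-led cluster held a Cd3 UMI. It is therefore called the Xcl1/Cd160 class, and its cells without a Cd3 UMI are given separately. Of the NK-like cells, 65 (14.3%) held a Cd3 UMI. Effector CD8 T-like cells were rare in adjacent tissue (7 and 1 cells) and were compared in 4 libraries.

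Gzma was highest in NK-like cells. Its level there was 6883 CPM in the lowest library, 11915 at the median and 15058 in the highest; the lowest values were those of both adjacent tissue libraries (6883 and 7335). Depth moved with this: the NK-like cells of those libraries were the deepest (median 5071 and 8357 UMIs, against 3188 to 4763 elsewhere). In adjacent tissue Ctrl, Gzma was 14655 CPM in the 14 NK-like cells at or under the median depth and 2948 in the 13 over it. Of 5 libraries divided in this way, the deeper NK-like cells had less Gzma in 4, all but micrometastasis Tim3-KD, and less Prf1 in 5. At clustering resolution 1.5, NK-like cells came as a cluster of 406 cells with 13871 CPM of Gzma and 1450 of Prf1, and a deeper cluster of 92 cells (median 11467 UMIs) with 6884 and 298. The Xcl1/Cd160 class held 869 to 5574 CPM (median 3391), and no library of it reached the lowest NK-like library. Effector CD8 T-like cells held 1070 CPM in micrometastasis Ctrl, 2778 in micrometastasis Tim3-KD, 999 in macrometastasis Ctrl and 581 in macrometastasis Tim3-KD. NKT-like cells were far lower, at 2.22 to 121 CPM (median 45.5). This low level depended on how the class was drawn. Cells gated one by one as NKT, for a UMI of Cd3 and of Cxcr6 and none of Cd8, Cd4 or Trdc, held 545 CPM over all libraries. By library they held 129 to 1397 CPM, which overlaps the 839 to 3352 CPM of cells gated as effector CD8 T. Over the libraries, with the library as a block, Gzma was higher in NK-like than in Xcl1/Cd160 cells by 1.95 ± 0.30 (SE) on the log2(CPM + 10) scale (limma, adjusted p = 1.45e-05), in NK-like than in effector CD8 T-like cells by 3.41 ± 0.34 (adjusted p = 1.05e-08) and in effector CD8 T-like than in NKT-like cells by 4.31 ± 0.34 (adjusted p = 4.91e-10). In the limma fit Xcl1/Cd160 cells exceeded effector CD8 T-like cells by 1.46 ± 0.34 (adjusted p = 0.00289), a call lost at clustering resolution 1.5 (1.16, adjusted p = 0.0611). Cells gated one by one as ILC1, for an NK receptor, an ILC1 marker and no UMI of Cd3, Eomes or Itga2, are mostly other cells (45 cells, of which 42.2% lie in the Xcl1/Cd160 class), and their difference from gated effector CD8 T cells did not pass (0.91, limma, adjusted p = 0.153).

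Gzmb had another order. It was highest in the Xcl1/Cd160 class, at 1714 to 3675 CPM (median 2244), followed by NK-like cells at 996 to 2100 CPM (median 1463), and the ranges overlapped. Effector CD8 T-like cells held 845 CPM in micrometastasis Ctrl, 1038 in micrometastasis Tim3-KD, 515 in macrometastasis Ctrl and 262 in macrometastasis Tim3-KD, and NKT-like cells held 179 to 642 CPM (median 371). The difference between NK-like and Xcl1/Cd160 cells did not pass the test across all genes (-0.64 ± 0.26, limma, adjusted p = 0.109), although NK-like cells were the lower in 6 of 6 libraries (exact two-sided sign-flip p = 0.03125 before adjustment, the smallest that 6 libraries allow). It passed with the members kept in the clustering (-0.81, limma, adjusted p = 0.0322) and at clustering resolution 1.5 (-0.85, limma, adjusted p = 0.0475), and between the NK and ILC1 gates its direction turned (0.30, limma, adjusted p = 0.652). The level in the Xcl1/Cd160 class differed with T cell transcripts: within the Xcl1/Cd160 class, the 108 cells with a Cd3 UMI held 2791 CPM (95% interval 2655 to 2932) and the 34 without one held 1124 (964 to 1303), below the 1693 of all NK-like cells. In micrometastasis Ctrl these were 2871 and 1401 CPM, and in macrometastasis Ctrl 2723 and 591. Gzmb was higher in NK-like than in effector CD8 T-like cells by 1.39 ± 0.31 (limma, adjusted p = 0.00150), a call lost with cells gated one by one (0.63, adjusted p = 0.121), and than in NKT-like cells by 1.94 ± 0.26 (adjusted p = 1.43e-06). Xcl1/Cd160 cells exceeded effector CD8 T-like cells by 2.03 ± 0.31 (limma, adjusted p = 1.98e-05). In the ILC1 gate, which leaves out cells with a Cd3 UMI, the difference was 0.33 (limma, adjusted p = 0.601). The difference between effector CD8 T-like and NKT-like cells missed the threshold (0.55 ± 0.31, limma, adjusted p = 0.368), and it passed without macrometastasis Tim3-KD (1.07, adjusted p = 0.0218).

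Prf1, like Gzma, was highest in NK-like cells, which held 384 to 1481 CPM (median 1066), with micrometastasis Tim3-KD at 384 below the other libraries, which started at 784. The effector CD8 T-like level was 343 CPM in micrometastasis Ctrl, 535 in micrometastasis Tim3-KD, 157 in macrometastasis Ctrl and 327 in macrometastasis Tim3-KD. The Xcl1/Cd160 class held 66.8 to 241 CPM (median 176) and NKT-like cells 15.4 to 48.4 (median 29.7). Prf1 was higher in NK-like than in Xcl1/Cd160 cells by 2.53 ± 0.32 (limma, adjusted p = 8.01e-07), the largest difference of the 3 genes between these classes. It was higher than in effector CD8 T-like cells by 1.57 ± 0.37 in the limma fit (adjusted p = 0.00296), but in micrometastasis Tim3-KD NK-like cells were the lower (384 against 535 CPM), and without macrometastasis Ctrl the difference missed the threshold (1.07, adjusted p = 0.102). Between Xcl1/Cd160 and effector CD8 T-like cells the difference was -0.96 ± 0.37 (limma, adjusted p = 0.0879), and it passed without macrometastasis Ctrl (-1.41, adjusted p = 0.0207). Between the ILC1 and effector CD8 T gates the direction turned (0.73, limma, adjusted p = 0.241).

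Of the 1727 genes tested, 6.43% were higher in NK-like and 8.69% in Xcl1/Cd160 cells in the first of these comparisons, against 2 and 0 of the 3 members. Against effector CD8 T-like cells, all 3 members were higher in NK-like cells (8.51% of genes higher, 5.5% lower) and 2 of 3, both granzymes, in Xcl1/Cd160 cells (9.32% higher, 4.46% lower). Against NKT-like cells all 3 were higher in NK-like (8.8% higher, 9.03% lower) and in Xcl1/Cd160 cells (5.39% higher, 3.76% lower), and 2 of 3, Gzma and Prf1, in effector CD8 T-like cells (4.46% higher, 7.01% lower).

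**Figure D1:**
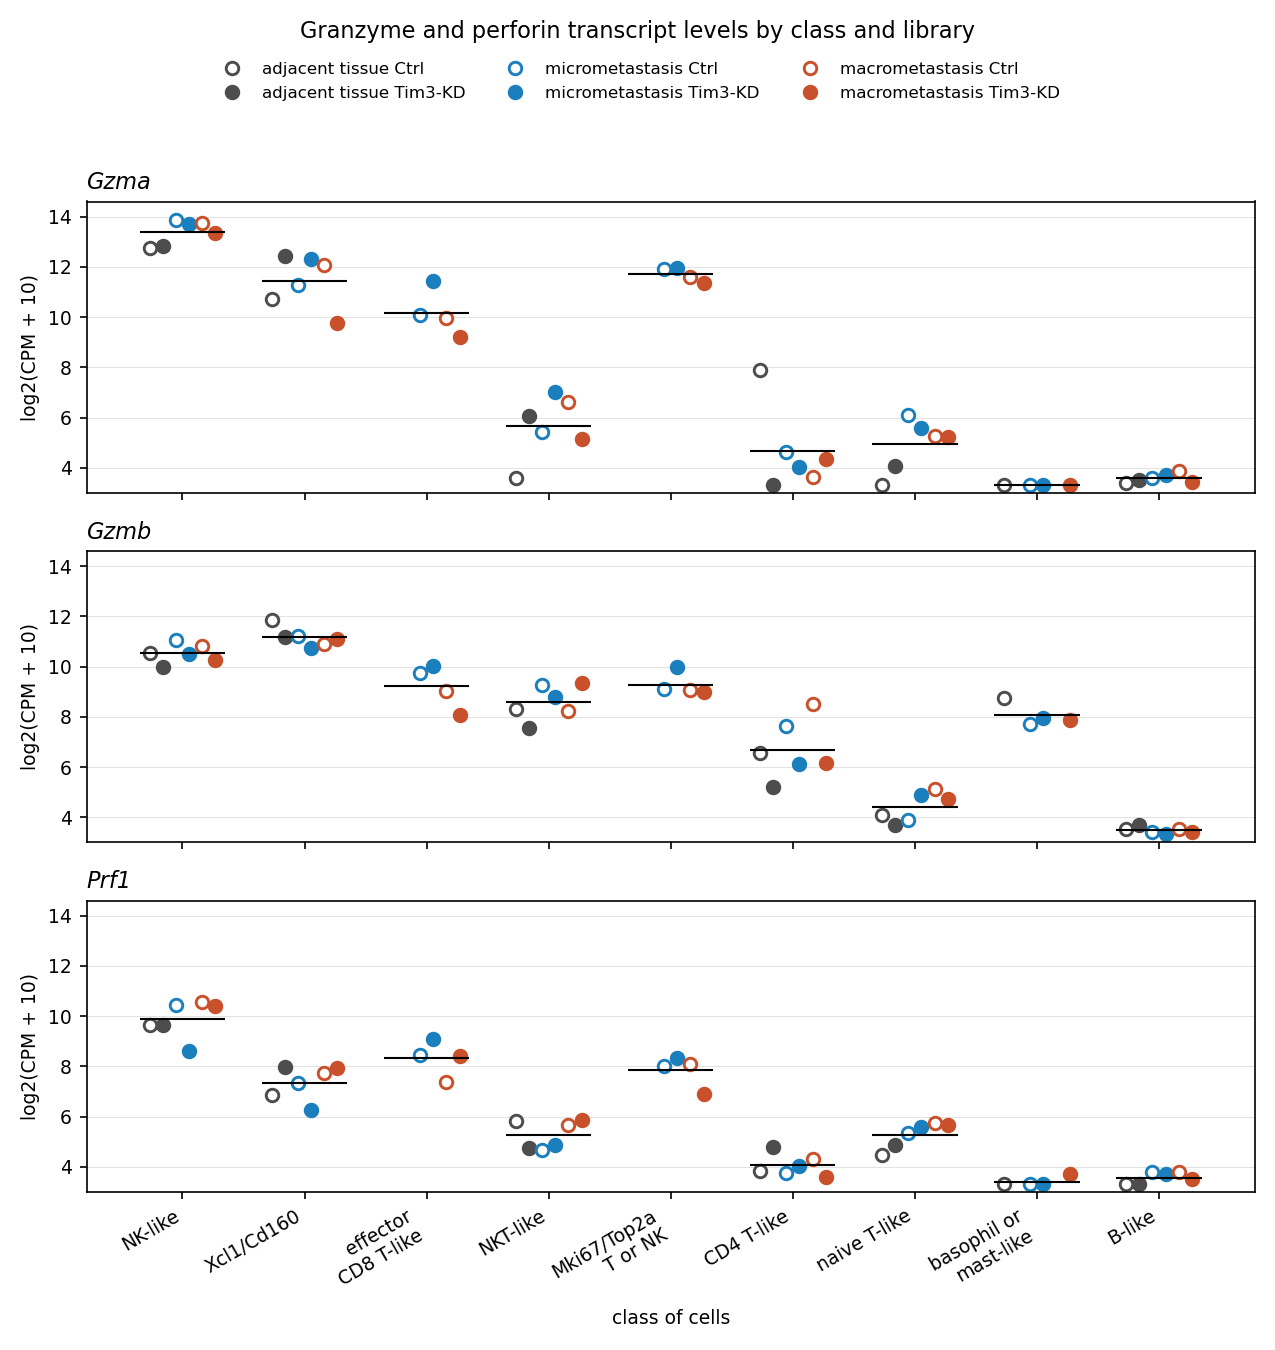
Levels of Gzma, Gzmb and Prf1, as log2(CPM + 10), in 9 classes of cells. Each point is 1 library with at least 10 cells of the class (open: Ctrl, filled: Tim3-KD, colors: site), and the line is the mean over libraries. Gzma of the NK-like libraries lies above that of every other class, Gzmb is highest in the Xcl1/Cd160 class, and of the 3 genes only Gzmb has a level above a few CPM in basophil or mast-like cells.

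The amount of Gzmb relative to Prf1 differed between the classes. UMIs of Gzmb per UMI of Prf1 were 0.921 to 3.76 in the 6 NK-like libraries, with micrometastasis Tim3-KD highest and the other 5 at or under 1.85. They were 9.22 to 34.9 in the Xcl1/Cd160 class and 6.57 to 39.0 in NKT-like cells, so that neither range overlapped that of NK-like cells. In effector CD8 T-like cells the ratio was 2.47 in micrometastasis Ctrl, 1.94 in micrometastasis Tim3-KD, 3.28 in macrometastasis Ctrl and 0.801 in macrometastasis Tim3-KD. With cells gated one by one it was 3.07, 2.15, 3.28 and 2.48 in the same order, so that the value under 1 was not seen in them. The log2 ratio was higher in Xcl1/Cd160 than in NK-like cells by 3.20 ± 0.56 (SD, n = 6 libraries) and in NKT-like than in NK-like cells by 3.03 ± 1.00, each in 6 of 6 libraries (exact two-sided sign-flip p = 0.03125, adjusted over 3 comparisons 0.0469). Neither passed without cells under 3000 UMIs, where the differences were 3.23 (5 of 5 libraries) and 2.94 (6 of 6) with an adjusted exact p of 0.09375 each, and gates left too few libraries to pass (adjusted exact p = 0.5 and 0.375). Xcl1/Cd160 and NKT-like cells differed by 0.18 ± 1.22 (exact sign-flip p = 0.8125), with single libraries from -1.22 to 2.39. Within the Xcl1/Cd160 class the ratio was 17.0 (13.8 to 21.2) in cells with a Cd3 UMI and 4.63 (3.25 to 6.76) in cells without one, against 1.34 (1.26 to 1.41) in NK-like cells without one. These pool libraries, and the cells of adjacent tissue are all in the first set. By library, the ratio was 20.1 (11.3 to 39.4) with and 8.57 (3.91 to 22.2) without a Cd3 UMI in micrometastasis Ctrl, where the intervals overlap, and 14.7 (8.74 to 26.8) and 2.58 (1.29 to 5.52) in macrometastasis Ctrl, each from 10 to 19 cells. In the 45 cells of the ILC1 gate the ratio was 2.30, with 5693 CPM of Gzma, 1209 of Gzmb and 526 of Prf1. Their log2 ratio exceeded that of gated NK cells by 0.99 in the 2 libraries with enough cells, too few for a test (smallest exact p 0.5).

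**Figure D2:**
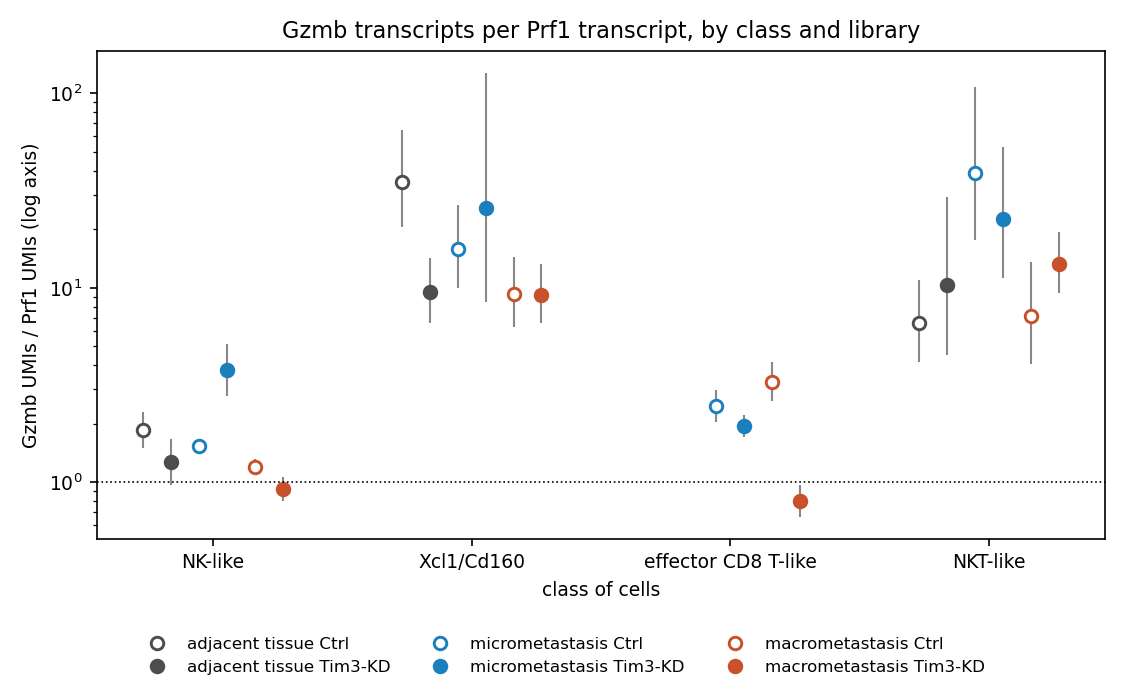
Gzmb UMIs divided by Prf1 UMIs in each library (log axis) for 4 classes of cells, with 95% counting intervals (open: Ctrl, filled: Tim3-KD, colors: site). The Xcl1/Cd160 and NKT-like points lie between 6.57 and 39.0, above all NK-like and effector CD8 T-like points, which lie between 0.801 and 3.76.

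The same pattern was seen in single cells. After each cell was thinned to 1500 UMIs, so that depth was equal, 58.3% of the NK-like cells (95% interval 53.6 to 62.9) held UMIs of all 3 genes, against 8.45% (4.44 to 14.3) of the Xcl1/Cd160 class, 4.905% (2.93 to 7.64) of effector CD8 T-like cells and 0 of 464 NKT-like cells, which allows a share of up to 0.647% for cells with such UMIs at this depth. A granzyme without Prf1 was found in 63.4% of the Xcl1/Cd160 class, 32.4% of effector CD8 T-like, 25.9% of NKT-like and 19.2% of NK-like cells. Prf1 with no granzyme UMI was most frequent in effector CD8 T-like cells (11.2%, against 1.99% of NK-like cells). In NKT-like cells 109 of the 120 granzyme-positive, Prf1-negative cells held Gzmb alone. A missing UMI at this depth is not the absence of the transcript: without thinning, Prf1 was found in 92.1% of NK-like cells and 44.4% of the Xcl1/Cd160 class, against 76.4% and 22.5% with it. Among thinned B-like cells, which should lack all 3, the shares were 0.306% for Gzma, 0.262% for Gzmb and 0.175% for Prf1 (median depth before thinning 4096 UMIs, against 3539 in NK-like cells).

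**Figure D3:**
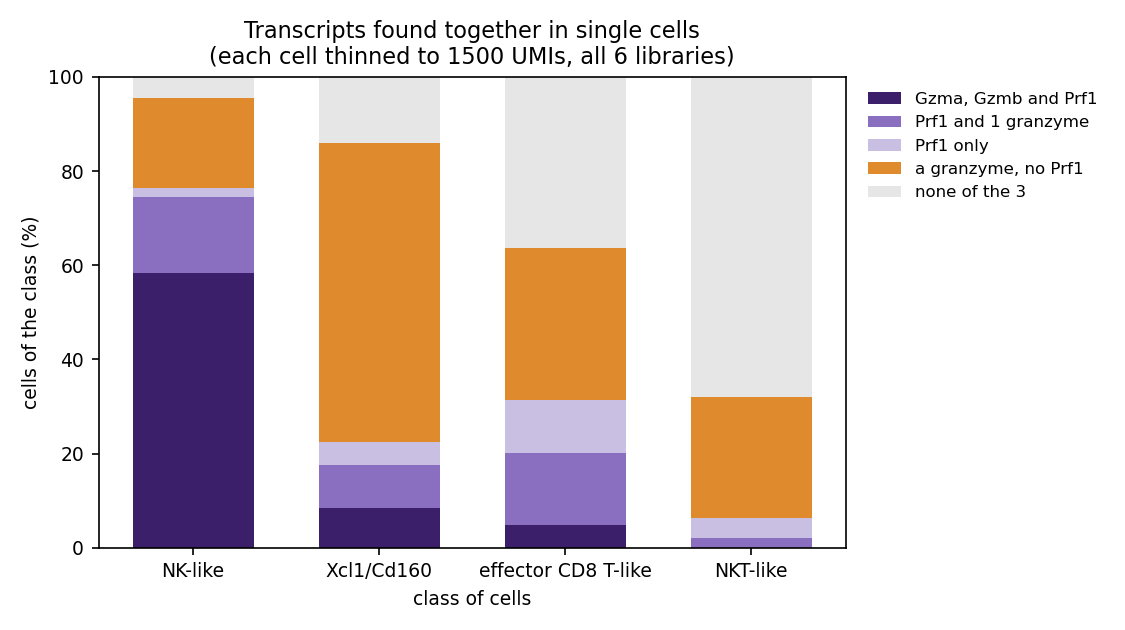
Percent of the cells of 4 classes in which UMIs of Gzma, Gzmb and Prf1 were found together, over all 6 libraries after thinning each cell to 1500 UMIs. NK-like cells mostly held all 3 (58.3%), the Xcl1/Cd160 class mostly a granzyme without Prf1 (63.4%), and 67.9% of NKT-like cells none.

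The 3 genes were spread unequally over the cells of a class. The 46 of 453 NK-like cells with most Gzma UMIs held 28.0% of the Gzma UMIs of the class, whereas in effector CD8 T-like cells the top 37 of 367 held 80.4%. All 133 Gzma UMIs of NKT-like cells were in 15 of 464 cells. The median NK-like cell had 15089 CPM of Gzma, and the median effector CD8 T-like cell had none. Gzmb and Prf1 were more even in effector CD8 T-like cells, where the top 37 cells held 47.7% and 56.9% of the UMIs.

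The effector CD8 T-like cells were divided by Havcr2, which encodes TIM3 and is known as a checkpoint receptor of chronically stimulated T cells. It is among the leading genes of this cluster, and was singled out after the values had been seen. Of the 367 cells, 108 held a Havcr2 UMI. In these, Gzma was 377 CPM in micrometastasis Ctrl, 1141 in micrometastasis Tim3-KD, 73.5 in macrometastasis Ctrl and 185 in macrometastasis Tim3-KD, and in cells without a Havcr2 UMI it was 1293, 4210, 1406 and 917 CPM in the same order. Prf1 went the other way, with 781, 753, 257 and 542 CPM in cells with a Havcr2 UMI and 202, 345, 113 and 146 CPM in cells without one. Thus Gzma was lower and Prf1 higher beside Havcr2 in 4 of 4 libraries, while Gzmb was 912 against 823, 1027 against 1047, 394 against 568 and 247 against 275 CPM. Gzmb UMIs per Prf1 UMI were 1.02 (0.908 to 1.14) with and 3.45 (3.05 to 3.92) without a Havcr2 UMI over all libraries. Cells with a Havcr2 UMI were deeper (median 6824 against 4630 UMIs), and depth moved with the members too. In the deeper cells of each library (over its median), Gzma was lower in 3 of 4 libraries (674 against 2027, 855 against 1445 and 410 against 1107 CPM, but 3097 against 2026 in micrometastasis Tim3-KD). Prf1 was higher there in 3 of 4 (367 against 283, 567 against 462 and 356 against 240, but 153 against 171 in macrometastasis Ctrl). The part of depth in the Havcr2 split was not tested. With 4 libraries an exact test cannot go below 0.125, so that none is given.

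NK-like cells held most Gzma (61.0% of its 42104 UMIs) and most Prf1 (54.0% of 4679), but 30.9% of the 11084 Gzmb UMIs. Gzmb was shared with the Xcl1/Cd160 class (15.8%), effector CD8 T-like cells (15.4%) and NKT-like cells (10.5%). Unnamed T or NK clusters held 22.4% of Gzma, 16.9% of Gzmb and 15.6% of Prf1, most of it in a cluster of 132 cells led by cell cycle genes such as Mki67 and Top2a, which held 3314 CPM of Gzma, 610 of Gzmb and 225 of Prf1 at a median depth of 16540 UMIs. Both the number of cells and the level per class differed between libraries, and their parts were not separated. In micrometastasis Ctrl, NK-like cells (165) held 69.6% of the Prf1 UMIs, and in micrometastasis Tim3-KD, effector CD8 T-like cells (118) held 54.9% and NK-like cells (26) held 8.80%.

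**Figure D4:**
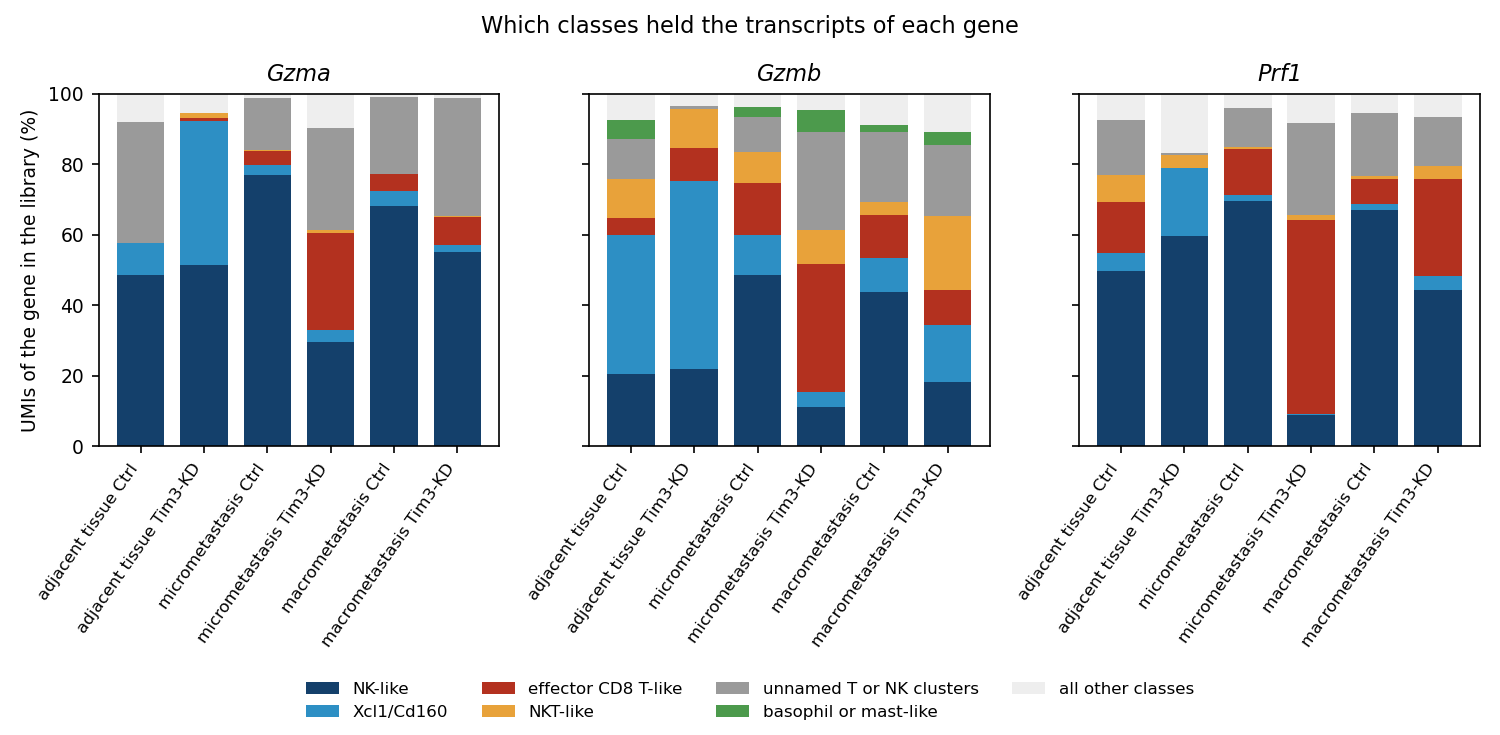
Percent of the UMIs of each gene held by each class of cells, 1 bar per library. Among the named classes, NK-like cells hold the largest part of Gzma in every library and of Prf1 in 5 of 6, while Prf1 in micrometastasis Tim3-KD lies mostly in effector CD8 T-like cells (54.9%).

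Outside the T and NK clusters, Gzmb was found in basophil or mast-like cells. It was 419 CPM in adjacent tissue Ctrl, 203 in micrometastasis Ctrl, 241 in micrometastasis Tim3-KD and 227 in macrometastasis Tim3-KD, the 4 libraries with at least 10 such cells. After thinning, 22.4% of the 143 cells (15.8 to 30.1) held a Gzmb UMI, and 0 of 143 held Gzma or Prf1, which allows a share of up to 2.10% for cells with a captured UMI at this depth and sets no limit on cells that express the genes. Before thinning, 1 cell held 1 Prf1 UMI. In the other classes outside the T and NK clusters, the members lay at a low level or in few cells: of the 705 Gzma UMIs of monocyte or macrophage-like cells, 690 were in 7 of 2275 cells and 376 in 1 cell, 81 of the 92 of plasmacytoid dendritic-like cells were in 1 cell, and 162 of the 270 Gzmb UMIs of progenitor-like cells were in 1 cell. Whether these few are doublets that remained was not tested. Naive T-like cells held Prf1 in every library (12.0 to 44.1 CPM, median 34.5), with a UMI in 4.89% of thinned cells (3.39 to 6.80), above the 0.175% of B-like cells, and 1.04% of them held Gzmb. CD4 T-like cells held Gzmb at 26.6 to 350 CPM (median 73.3) and Prf1 at 2.10 to 17.7.

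Setting Tim3-KD beside Ctrl addresses whether immune cells near tumor cells with less Tim3 differ in their cytotoxic genes. Since each group was 1 library, the ratios below compare 2 libraries and have no replicate check. Over all cells of a library, adjacent tissue had more of each gene in Tim3-KD, with ratios of 3.10 for Gzma, 1.93 for Gzmb and 2.51 for Prf1 (50.1% of all genes were at least 1.5-fold higher). Micrometastasis had less, with ratios of 0.374, 0.482 and 0.359 (37.4% of genes lower by that much), and so had macrometastasis, with 0.320, 0.560 and 0.463 (23.3% lower). Paired by site, the mean log2 ratio was -0.48 ± 1.83 (SD, n = 3 sites) for Gzma, -0.31 ± 1.10 for Gzmb and -0.42 ± 1.53 for Prf1 (exact two-sided sign-flip p = 0.75 each, with a smallest possible p of 0.25). NK-like cells of adjacent tissue were 1.498% of Ctrl (27 cells, 95% interval 0.989 to 2.17) and 2.03% of Tim3-KD cells (11 cells, 1.02 to 3.60), and these intervals overlap. Of the 1750 Gzma UMIs of adjacent tissue Tim3-KD, 898 lay in NK-like cells and 717 in the 14 cells of the Xcl1/Cd160 class. The share of NK-like cells was lower in Tim3-KD, as the genes were, in micrometastasis (3.23% of Ctrl and 0.506% of Tim3-KD cells) and in macrometastasis (3.34% and 1.09%). Fewer NK-like cells and less transcript per cell cannot be told apart in such whole-library values.

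Within NK-like cells the granzymes differed less than over whole libraries. In micrometastasis, Gzma stood at 15058 CPM for Ctrl against 13319 for Tim3-KD (ratio 0.885, 95% interval 0.842 to 0.929) and 13882 and 10511 in macrometastasis (0.757, 0.728 to 0.788). Gzmb was 2100 and 1445 CPM in micrometastasis (0.688, 0.591 to 0.797) and 1780 and 1224 in macrometastasis (0.688, 0.612 to 0.771). Prf1 was 1374 and 384 CPM in micrometastasis (0.279, 0.209 to 0.367) and 1481 and 1330 in macrometastasis (0.898, 0.799 to 1.007). Only Prf1 in micrometastasis passed 1.5-fold, among 44.6% of all genes that were lower by as much between these libraries, whose median gene differed by -0.51 on the log2 scale. The 26 Tim3-KD cells were also of another make-up, since 53.8% of them held a Cd3 UMI against 9.09% of the 165 Ctrl cells. Among cells without one (150 and only 12, under the 20 cells asked of a class), Prf1 was 1456 and 689 CPM (ratio 0.473, 0.332 to 0.655), while Gzma was 15849 and 19682 (1.24, 1.16 to 1.32) and Gzmb 2236 and 1975 (0.884, 0.719 to 1.08).

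In effector CD8 T-like cells the directions differed by site and gene. In micrometastasis all were higher in Tim3-KD, Gzma with a ratio of 2.60 (2.35 to 2.87), Gzmb with 1.23 (1.08 to 1.39) and Prf1 with 1.56 (1.29 to 1.90), and 9.91% of genes were higher by 1.5-fold. The higher Prf1 was not seen in cells with a Havcr2 UMI (21.0% of Ctrl and 36.4% of Tim3-KD cells), where its ratio was 0.964 (0.751 to 1.25), against 1.71 (1.26 to 2.32) in the others. With cells gated one by one the Gzma ratio was 1.496 (1.39 to 1.61). In macrometastasis Gzma (0.582, 0.515 to 0.657) and Gzmb (0.510, 0.426 to 0.608) were lower and Prf1 was higher (2.08, 1.65 to 2.66), against 14% of genes lower and 15.2% higher by 1.5-fold. The Prf1 ratio of macrometastasis depended on how the class was drawn, since in cells gated one by one its log2 value was -0.22 in place of 1.06. The make-up differed here too: 21.4% of the Ctrl and 33.3% of the Tim3-KD cells of macrometastasis held a Havcr2 UMI. In those cells (15 and 30) the Gzma ratio was 2.52 (1.41 to 4.85) and the Prf1 ratio 2.11 (1.54 to 2.94), and in cells without a Havcr2 UMI (55 and 60) they were 0.652 (0.574 to 0.741) and 1.29 (0.874 to 1.91). The lower Gzma was thus not seen in cells with a Havcr2 UMI, and the Prf1 interval of the others included 1.

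In the Xcl1/Cd160 class, macrometastasis was the site with at least 20 cells in both libraries (25 and 35). There Gzma stood at 4305 CPM for Ctrl against 869 for Tim3-KD (0.202, 0.166 to 0.244), with 14.2% of genes lower by 1.5-fold, while Gzmb (1.16, 0.9852 to 1.37) and Prf1 (1.18, 0.698 to 2.01) had intervals that included 1. In its cells with a Cd3 UMI (15 and 27), Gzma was 6124 and 584 CPM. In the 10 Ctrl cells without one it was 1488 CPM. Tim3-KD had under 10 such cells and is not given, so that the lower Gzma was not examined in cells without a Cd3 UMI. The other sites, with 14 Tim3-KD cells each, lay the other way: Gzma was 1668 CPM for Ctrl against 5574 for Tim3-KD of adjacent tissue, and 2477 against 5053 for micrometastasis.

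In NKT-like cells Gzma rested on few UMIs. In adjacent tissue the Ctrl library had 1 UMI and the Tim3-KD library 20 (ratio 26.0, 4.16 to 1077), in micrometastasis 13 and 50 (3.61, 1.93 to 7.25) and in macrometastasis 31 and 18 (0.288, 0.152 to 0.532). Beside these stood 18.7% of genes higher by 1.5-fold in adjacent tissue, 10% higher in micrometastasis and 9.22% lower in macrometastasis. Gzmb was lower in Tim3-KD of adjacent tissue (0.584, 0.425 to 0.793, with 32.9% of genes lower by 1.5-fold) and of micrometastasis (0.727, 0.595 to 0.886), and higher in macrometastasis (2.24, 1.80 to 2.81, with 19% of genes higher). Prf1 had ratios of 0.371 (0.123 to 0.951), 1.25 (0.381 to 4.38) and 1.21 (0.630 to 2.43), from 6 to 34 UMIs per library. In NKT-like cells gated one by one, of which 74.0% lie in this class, the Gzma ratios were 1.48 (1.12 to 1.96), 1.03 (0.8287 to 1.27) and 0.0921 (0.0713 to 0.118) in the same order of sites. Their Gzmb ratios were 0.328 (0.258 to 0.415), 1.03 (0.773 to 1.36) and 1.10 (0.921 to 1.33), so that neither the Gzma difference in micrometastasis nor the Gzmb difference in macrometastasis was seen in them. Without cells under 3000 UMIs the Gzma ratio of micrometastasis was 1.52 (0.705 to 3.38) and the Gzmb ratio 0.490 (0.384 to 0.621).

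**Figure D5:**
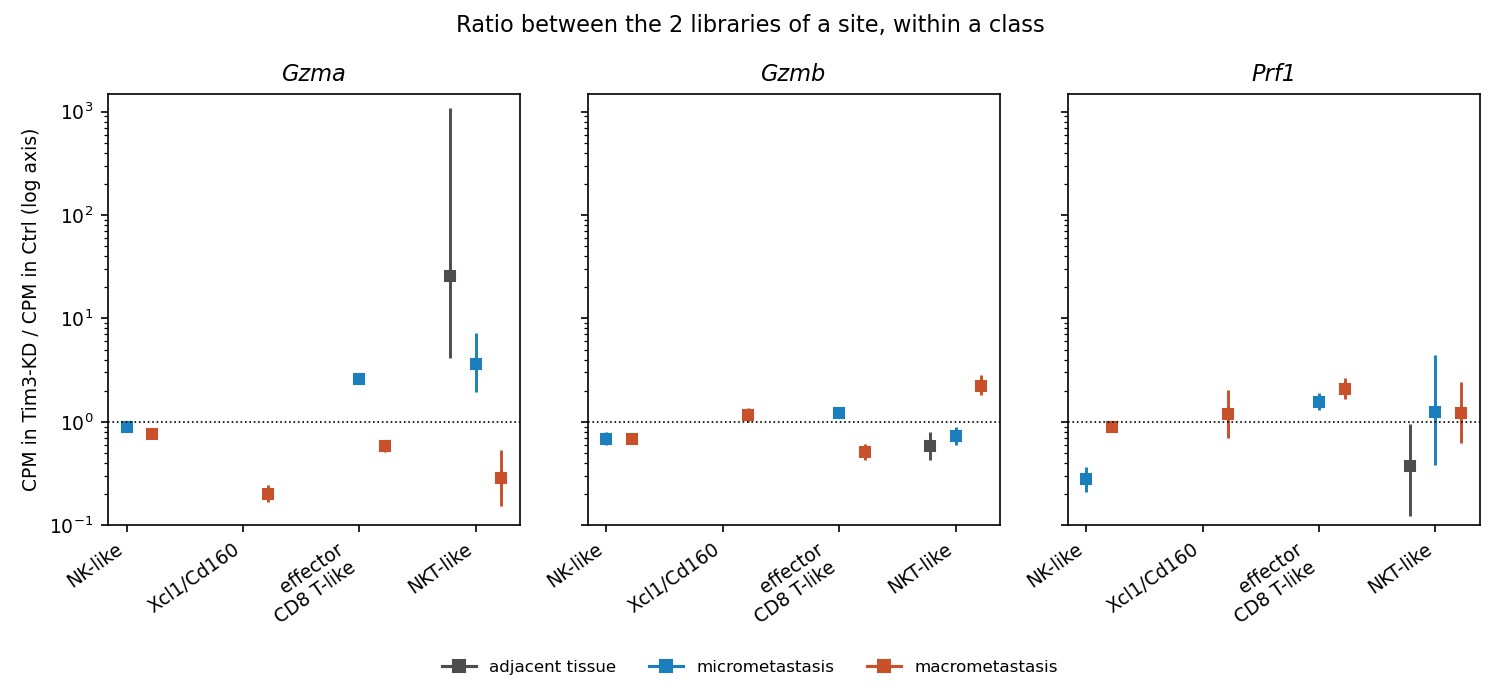
CPM in Tim3-KD divided by CPM in Ctrl of the same site (log axis) for the 3 genes, within classes of at least 20 cells in both libraries; bars are 95% counting intervals and no replicate stands behind any point. Prf1 of NK-like cells in micrometastasis lies at 0.279, and Gzma of effector CD8 T-like cells lies at 2.60 in micrometastasis and 0.582 in macrometastasis.

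Of 43 other genes of the granule pathway, 23 were in the fit, and 21 of these had been used to draw the clusters. Their differences between clusters are therefore a description and no test, and only Serpinb9b and Id2, a transcriptional regulator, were not used. The serpins protect a cytotoxic cell from its own granzymes. Serpinb9, which inhibits granzyme B, was at 365 CPM in NK-like cells and 159 in the Xcl1/Cd160 class, and Serpinb6b at 630 and 270 CPM. Serpinb9b, held by 2 of 3 matrices, was higher in NK-like cells by 4.08 ± 0.38 (limma, adjusted p = 2.03e-08). Serpinb6a was at 221 CPM in effector CD8 T-like cells, against 30.6 in NK-like cells and 26.3 in the Xcl1/Cd160 class. The 4 inhibitors had a median log2 difference of 0.89 between NK-like and Xcl1/Cd160 cells, against -0.07 for all genes.

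The death ligands and cytokines lay the other way, with a median log2 difference of -1.95 over 4 genes. Tnfsf10, which encodes TRAIL, was at 3.95 CPM in NK-like cells and 118 in the Xcl1/Cd160 class, Tnf at 12.3 and 102.4, and Ifng at 327 and 725, while Fasl was at 237 and 197 CPM. Among granule proteins, Nkg7, of the granule membrane, was at 3475 and 1919 CPM, and Ctsw, a cathepsin of cytotoxic cells, at 386 and 580. Eomes, a T-box factor known to act on Prf1 and Gzmb, was at 283 and 13.8 CPM, and Prdm1, a transcriptional repressor active in effector lymphocytes, at 48.4 and 20.8. Id2 did not pass (-0.04 ± 0.23, limma, adjusted p = 0.938). Of the chemokines, Ccl5 was at 23980 and 12319 CPM and Xcl1 at 888 and 3779.

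Past the threshold of the fit, 7 of the 23 were higher in NK-like and 5 in Xcl1/Cd160 cells (6.43% and 8.69% of all genes). Against effector CD8 T-like cells, 10 were higher and 3 lower in NK-like cells (8.51% and 5.5% of all genes), and 6 higher and 3 lower in Xcl1/Cd160 cells (9.32% and 4.46%). Against NKT-like cells, 13 were higher and 3 lower in NK-like cells (8.8% and 9.03%), 12 higher and 0 lower in Xcl1/Cd160 cells (5.39% and 3.76%), and 10 higher and 2 lower in effector CD8 T-like cells (4.46% and 7.01%). These counts rest mostly on genes that drew the clusters. Of the other granzymes only Gzmf was held by a matrix used here, that of macrometastasis, and the rest were not analysed.

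Over 97 sums of a class and a library (23 classes, at least 20 cells each), the gene most like Gzma among 1467 was Prf1 (Pearson r of log2(CPM + 10) 0.95), followed by the NK receptor genes Klre1 (0.94), Klrc2 (0.92), Klrc1 (0.91) and Klri2 (0.89). Prf1 was most like Gzma (0.95), Klrc2 (0.93), Klre1 (0.92), Klrc1 (0.91) and Ccl5 (0.89). Gzmb was most like other genes: Sytl3 (0.94), Fasl (0.93), Il2rb (0.92), Ifng (0.92) and Ctsw (0.91), with 0.85 for Gzma and 0.85 for Prf1. These sums share libraries and include many classes at or near 0, so that the values describe the pattern and are no test.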

How the data were processed

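CD45+ liver cells of 6 libraries were profiled by droplet single-cell RNA-seq. The authors trimmed reads with Trim Galore 0.4.3, mapped them with STAR 2.7.7a to GRCm38, counted exons and introns, removed low-quality cells and doublets, and deposited scaled scores capped at 10, in 1 matrix per site. Since these scores are not counts, no count model was used. The scores were inverted to whole UMIs: at least 99.9972% of values came out within 0.05 of a whole number, and at most 0.161% of detected values lay at the cap, where UMIs are a lower bound (1 member value, Prf1 in macrometastasis).

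Cells were clustered with scanpy 1.11.5 on 1638 genes held by all 3 matrices, without granzymes and Prf1 (resolution 1), and clusters were named by marker lists. The naming rule was set after first clusterings had been seen. UMIs were summed per class and library with at least 10 cells. Classes were compared with limma 3.58.1 (R 4.3.3) on log2(CPM + 10), with the library as a block, over 1727 genes with a mean of at least 10 CPM in at least 2 matrices, and p-values were adjusted over these genes (Benjamini-Hochberg, threshold 0.05). Tim3-KD and Ctrl were compared by ratios with exact conditional binomial intervals, for classes of at least 20 cells in both libraries. Shares have exact (Clopper-Pearson) intervals, and the limit of a count of 0 is 3 counts. On simulated data (964 genes, NK-like against the Xcl1/Cd160 class), 52.1% of 2-fold and 91.8% of 4-fold changes were recovered. Of the calls, 11.0% were unchanged genes, above the 0.05 of the threshold. The noise between libraries set in the simulation was smaller than that of the members, whose differences between these classes had an SD of 0.51 to 1.08. The rates therefore do not carry over to the members.

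The genes, gene lists and classes were chosen with earlier results of these data known. Named were the 3 genes, a list of their pathway and, for each, the 5 genes with the most alike pattern.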

Additional observations from a re-analysis of the deposited data

Results flagged for a closer look

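Gzmb in the Xcl1/Cd160 class of adjacent tissue Ctrl was 3675 CPM, with a gap to the next library of 0.663 of the range of the 6 libraries, above Dixon's critical value. Of 12 groups of libraries tested in this way it was the 1 that passed. Chance gives about 1 in 20 for each group, so that 1 pass among 12 groups is no more than chance can well give. All 25 cells behind it held a Cd3 UMI.

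Tim3-KD over Ctrl went in opposite directions at different sites, with 1 library per group, so that the difference was not tested. In effector CD8 T-like cells the ratio was 2.60 in micrometastasis and 0.582 in macrometastasis for Gzma, and 1.23 and 0.510 for Gzmb. With cells gated one by one these were 1.496 and 0.406 for Gzma, and 1.16 and 0.648 for Gzmb. In NKT-like cells the Gzma ratio of adjacent tissue (26.0) and micrometastasis (3.61) lay above 1 and that of macrometastasis (0.288) below it, from 1 to 50 UMIs per library. For Gzmb in the same cells and order it was 0.584, 0.727 and 2.24. In NKT-like cells gated one by one, the ratios in this order were 1.48, 1.03 and 0.0921 for Gzma and 0.328, 1.03 and 1.10 for Gzmb, so that of the ratios above 1 Gzma in adjacent tissue alone kept an interval above 1 there.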

How the results depend on the processing

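By replicate number, no paired analysis was possible because the groups share 1 number only. Pairing Ctrl and Tim3-KD by site, chosen after seeing the data, gave an exact p of 0.5 to 1 for each gene in all cells and in NK-like, NKT-like and effector CD8 T-like cells (the Xcl1/Cd160 class had 1 usable site), where 2 or 3 sites allow no less than 0.5 or 0.25. Of the alternatives for differences between classes, 283 kept direction and call, 7 gained and 5 lost the call, and 2 reversed. Of those for Tim3-KD over Ctrl, 106 stayed within the counting interval, 33 moved out of it and 4 reversed. Of the other alternatives, 14 of 24 moved a share of cells and 3 of 12 a share of UMIs. Why values moved was not tested. The Cd3 and Havcr2 splits, leaving out the top cell and the alternatives for Gzmb over Prf1 were chosen after seeing the data.

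With cells gated one by one, where an ILC1 gate without Cd3 stands in for the Xcl1/Cd160 class and holds mostly other cells, Gzmb was 0.30 in NK minus ILC1 gates (limma, adjusted p = 0.652) and 0.63 in NK minus effector CD8 T gates. ILC1 minus effector CD8 T gates gave 0.91 for Gzma, 0.33 for Gzmb and 0.73 for Prf1, which reversed (limma, adjusted p = 0.241), and Gzmb in effector CD8 T minus NKT gates was 0.96 (limma, adjusted p = 0.0149). Gzmb in NK-like minus Xcl1/Cd160 cells was -0.81 with the members kept in the clustering and -0.85 at resolution 1.5, both past the threshold, and -0.64 by the exact sign-flip test, with p = 0.03125 before any adjustment over genes. Gzma in Xcl1/Cd160 minus effector CD8 T-like cells was 1.16 at resolution 1.5 (limma, adjusted p = 0.0611), and Gzmb in effector CD8 T-like minus NKT-like cells was 0.88 from the mean over cells. Without 1 library, Prf1 ranged from 1.07 to 2.21 in NK-like minus effector CD8 T-like cells and from -1.41 to -0.36 in Xcl1/Cd160 minus effector CD8 T-like cells, the first value of each being without macrometastasis Ctrl. Gzmb in effector CD8 T-like minus NKT-like cells ranged from 0.28 to 1.07, the highest without macrometastasis Tim3-KD.

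The log2 ratio of Tim3-KD to Ctrl for Gzma in NK-like cells of micrometastasis (-0.18) was 0.31 relative to the trimmed mean of all genes, 0.31 without cells with a Cd3 UMI, -0.40 from the mean over cells, -0.34 with members kept in the clustering, -0.050 without cells under 3000 UMIs and -0.40 without the top cell. For Gzmb it was -0.053 relative to the trimmed mean and -0.18 without Cd3 cells, and for Prf1 -1.35 and -1.08. In NK-like cells of macrometastasis, Gzma was -0.29 relative to the trimmed mean, -0.30 from the mean over cells, -0.51 with gates, -0.28 with members kept and -0.24 without cells under 3000 UMIs, Gzmb was -0.29 from the mean over cells, and Prf1 was 0.10 without cells under 3000 UMIs. In effector CD8 T-like cells, Gzma of micrometastasis was 1.04 from the mean over cells and 0.58 with gates. In macrometastasis Gzma was -0.38, -1.30 with gates and -1.08 without the top cell, Gzmb was -0.63 with gates, and Prf1 was 0.72 from the mean over cells and -0.22 with gates. Gzmb in NKT-like cells of micrometastasis was 0.039 with gates.

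The log2 ratio of Gzmb to Prf1 was higher in ILC1 than in NK gates by 0.99 (exact p = 0.5), in Xcl1/Cd160 than in NK-like cells by 3.23 without cells under 3000 UMIs (adjusted exact p = 0.09375), in NKT-like than in NK-like cells by 3.50 with gates (0.375) and 2.94 without cells under 3000 UMIs (0.09375), and in ILC1 minus NKT gates it was -2.48. With 2 to 6 libraries per comparison, no adjusted value of these alternatives could reach the threshold. Depth limits single-cell shares: in NK-like cells Prf1 was found in 76.4% with and 92.1% without thinning, and Gzmb in 72.4% and 84.3%.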
